A study of Mus musculus with 4 samples.

Results

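BTB zinc finger factors are transcription factors that join an amino-terminal BTB domain, through which they pair and recruit corepressors, to carboxy-terminal zinc fingers that read DNA. The family includes ThPOK (Zbtb7b), which commits thymocytes to the CD4 lineage, and PLZF (Zbtb16), which drives the innate-like program of NKT cells. Cullin 3 (Cul3) is the scaffold of ubiquitin ligases whose substrate adaptors also carry BTB domains, and PLZF is known to bind it. Members were taken by name: every probe set that the platform annotation assigns to a single gene called Zbtb followed by a number and at most 1 letter, or called Hic1, Hic2 or Patz1. Bcl6 and Bcl6b, which belong to the same family, were left out. This gave 92 probe sets for 42 genes, of 34945 single-gene probe sets for 18193 genes in all.

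RNA was measured on 4 arrays of CD4 single-positive thymocytes from mice on the B6 background. The 2 KO arrays came from Cul3 fl/fl mice with the CD4-Cre transgene, and the 2 LM arrays from Cul3 fl/fl mice without it, so both groups carried the floxed Cul3 alleles. The sort kept CD4+ cells and left out those with CD25 (regulatory T cells), those that bound PBS57-loaded CD1d (NKT cells) and those with a gamma delta receptor. The CD4 promoter drives Cre in thymocytes from before the CD4 single-positive stage. No array came from mice with Cre and intact Cul3, so Cre itself and loss of Cul3 cannot be told apart. Age is not given. Whether the 2 arrays of each genotype hold RNA of different mice is not stated either, and the p-values then reflect only array-to-array spread, possibly technical.

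The targeted gene did not separate the groups. The brightest Cul3 probe set had signals of 5380 and 5577 on the KO arrays, against 5333 and 5724 on the LM arrays, and the groups overlapped. KO minus LM was -0.01 ± 0.09 on the log2 scale (SE, adjusted p = 0.994 in limma), or 0.03 without KO replicate 1. The other 4 Cul3 probe sets differed by 0.31, 0.07, -0.15 and -0.02, and none passed the test. The deleted exons and the probe positions were not known here, and probes beyond a deletion cannot check it. Genotypes are thus those of the labels, and KO stands for the arrays labelled KO throughout. Of 13 listed markers of CD4 single-positive thymocytes, 10 had a probe set and all 10 were tested, among them Cd3e and Cd4. Of 8 double-positive thymocyte markers with a probe set 7 were also tested, and of 7 CD8 T cell markers 6. Passing background therefore does not tell these cell types apart. Pearson correlations between arrays ran from 0.961 to 0.974 over 11255 genes.

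Signals are the deposited intensities. Levels for testing were log2(signal + 16), then quantile normalized, and the added 16 understates changes of dim genes. Each gene was represented by its brightest probe set. A gene was tested if it exceeded, on at least 2 arrays, the 95th percentile of 80 odorant and vomeronasal receptor probe sets. Of the 42 family genes, 39 were tested. The other 3, Hic1, Zbtb7c and Zbtb8b, were not above background on any array with any of their 5 probe sets, whose signals ran from 4.2 to 73.9. HIC1 is a growth-restraining repressor that acts in intestinal T cells.

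No family gene passed the test. In limma, 0 of 39 were called higher and 0 lower on the KO arrays at an adjusted p below 0.05, beside 0.275% of all 11255 genes (0.133% higher and 0.142% lower). At an unadjusted p below 0.05 there were 3 of 39, or 7.69%, beside 8.4% of all genes. The median log2 difference was 0.013 over the family and 0.002 over all genes, and 21 members had a positive and 18 a negative difference. A positive difference was found for 53.8% of members, beside 50.3% of all genes. Both KO arrays lay above both LM arrays for 9 members and below them for 9, together 46.2% of the family, beside 37.4% of all genes. One of the 9 higher members, Zbtb12, passed the background filter only through the KO arrays, which strongly favours a positive difference. Without such genes the shares were 44.7% of 38 members and 36.1% of 11000 genes. Members' differences ran from -0.82 for Zbtb3 to 1.001 for Zbtb10, and adjusted p-values from 0.307 to 0.999.

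**Figure D1:**
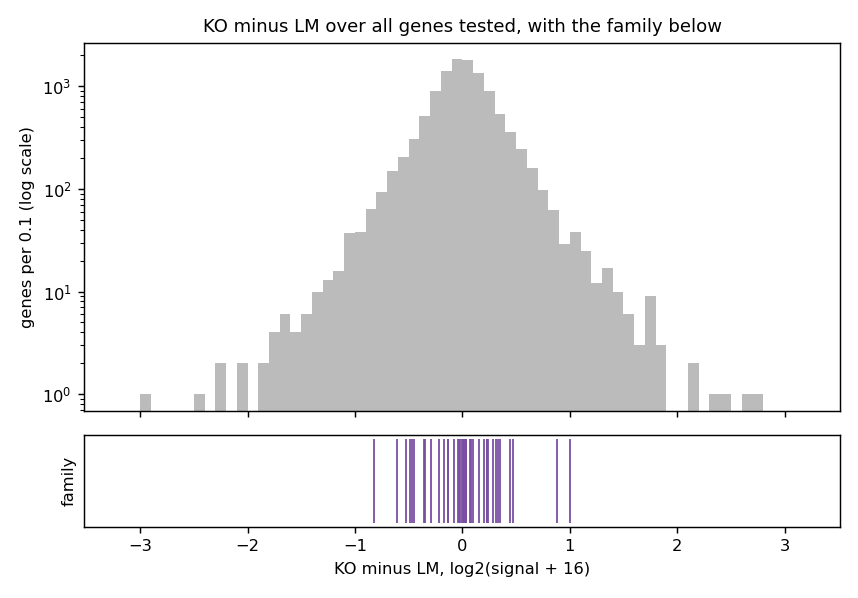
Histogram of the KO minus LM difference in log2(signal + 16) over the 11255 genes tested (vertical axis on a log scale), with a line below for each of the 39 family genes. The family lies between -0.82 and 1.001, with its median at 0.013.

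The arrays bounded some members closely and others hardly at all. The 95% interval of the difference lay within 0.5 of 0 on the log2 scale for 9 members, 23.1% of the family beside 26.5% of all genes. It lay within 1 of 0, that is within a 2-fold change either way, for 30 members, 76.9% beside 75.9% of all genes. Standard errors ran from 0.127 for Zbtb7a to 0.55 for Zbtb3. They draw largely on the spread of genes of like brightness, so they do not measure how closely a member's own arrays matched. Zbtb22, nearly the same on every array, had an SE of 0.196, and Zbtb44, which varied more, 0.150. For 26 of 39 members, the gap between the arrays of at least 1 group was as large as the difference between the groups. Every gene whose groups overlap must meet this, and the share over all genes was not counted, so it is no trait of the family.

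**Figure D2:**
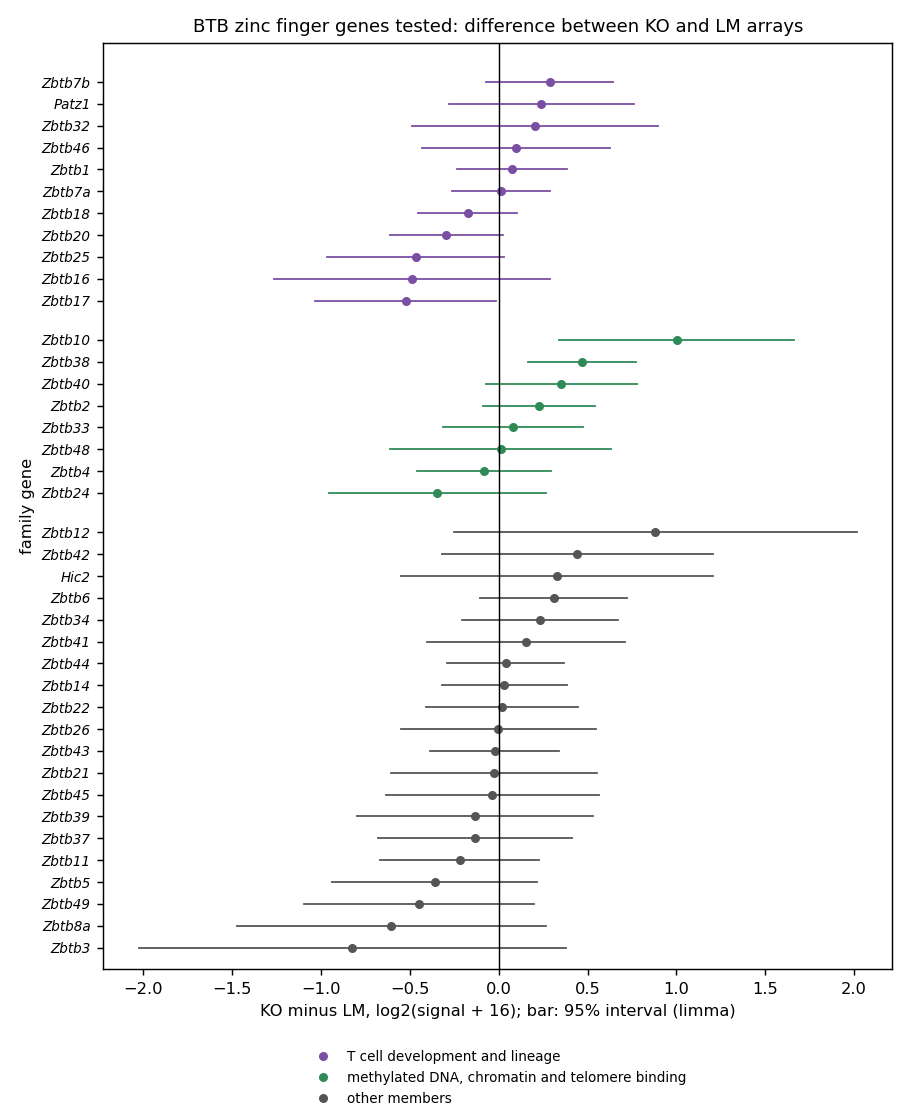
KO minus LM difference in log2(signal + 16) for the 39 family genes tested (points), with 95% intervals from limma (bars), ordered by size within 3 role groups. The intervals of Zbtb38, Zbtb10 and Zbtb17 leave out 0, but their adjusted p-values were 0.307, 0.321 and 0.582.

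Among 12 members grouped for roles in T cells and other immune cells, 11 were tested, with a median difference of 0.01, 6 positive and 5 negative. ThPOK, the CD4 lineage factor, is the member by which these cells are best known. Zbtb7b had signals of 1492 and 1525 on the KO arrays, against 1337 and 1144 on the LM arrays. Both KO arrays were above both LM arrays, with LM replicate 2 lowest. The log2 difference was 0.29 ± 0.16 (SE, limma adjusted p = 0.722), and leaving out single arrays moved it between 0.18 and 0.40. Its 95% interval ran from 95.1% to 156% of the LM level. The second Zbtb7b probe set, with signals of 381 and 536 on KO arrays and 307 and 512 on LM arrays, differed by 0.19, and there the groups overlapped.

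Zbtb7a encodes LRF, which shares functions with ThPOK in CD4 lineage cells. It had the smallest standard error of the family and read 2890 and 2629 on the KO arrays, against 2804 and 2714 on the LM arrays. The groups overlapped, and the difference of 0.01 had an interval from -0.27 to 0.29, or 83.2% to 122% of the LM level. Its sign turned under median centring (-0.05) and without normalization (-0.001). Patz1 encodes MAZR, which represses ThPOK in cells of the CD8 lineage. It read 918 and 1643 on the KO arrays, against 1046 and 1055 on the LM arrays. KO replicate 2 alone stood above the other 3 arrays, and the difference was 0.24 ± 0.24 (limma adjusted p = 0.871), or -0.18 without that array and 0.66 without the other KO array. The second Patz1 probe set differed by -0.02.

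PLZF was close to background. The brightest Zbtb16 probe set read 119 and 111 on the KO arrays, against 164 and 158 on the LM arrays, where background stood at 97.5 and 83.4 on KO and 109 and 85.2 on LM. All 4 arrays exceeded it, and both KO arrays were below both LM arrays. The difference was -0.49 ± 0.36 (SE, limma adjusted p = 0.806), and its interval ran from 41.6% to 122% of the LM level. A second probe set read 42.5 and 7.9 on KO and 106 and 89.8 on LM arrays and passed background on 1 array. The last of its probe sets, with signals of 21.5 and 55.4 on KO and 44.3 and 61.5 on LM arrays, passed it on none. In RNA from a cell mixture, fewer cells of a type and less RNA per cell cannot be told apart.

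MIZ1 (Zbtb17), a partner of MYC that is needed early in lymphoid development, had the smallest p of this group. Zbtb17 read 277 and 297 on the KO arrays, against 423 and 413 on the LM arrays. The arrays within a group were close to each other, at 8.23 ± 0.04 on KO and 8.76 ± 0.03 on LM (log2 mean ± SD, n = 2 each). The difference was -0.52 ± 0.23 (SE, limma adjusted p = 0.582), and it stayed between -0.55 and -0.50 with any 1 array left out. A second probe set, above background on 1 array, read 43.8 and 111 on KO and 14.0 and 38.7 on LM arrays. Averaging both probe sets on the log2 scale turned the sign, to 0.24.

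Zbtb25 and Zbtb1 are neighbours on chromosome 12 and are read in opposite directions. Zbtb1, which lymphoid progenitors require, had signals of 2560 and 2334 on the KO arrays, against 2121 and 2552 on the LM arrays. Zbtb25 had signals of 342 and 463 on the KO arrays, against 543 and 579 on the LM arrays. The groups overlapped for Zbtb1 (0.07 ± 0.14, limma adjusted p = 0.947, and -0.04 without LM replicate 1), while both KO arrays were lower for Zbtb25 (-0.47 ± 0.23, adjusted p = 0.635). The second Zbtb25 probe set went the same way, with signals of 169 and 168 on KO and 272 and 261 on LM arrays, a difference of -0.65. The second Zbtb1 probe set had signals of 509 and 544 on KO and 712 and 560 on LM arrays, a difference of -0.26. In that set both KO arrays were lower, as for Zbtb25. That the pair differs between the genotypes by unequal amounts was not tested.

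The sequences before both start sites are shown because the genes lie side by side and run apart, and the nearest of their listed starts are 960 bases from each other. The RefSeq gene records, which include other starts, overlap there by 164 bases. They are the 250 bases before the start in RefSeq, build GRCm38.p6, read 5′ to 3′ on the strand of the gene. Capitals mark the E-box CACGTG, the site of MYC and MAX. Zbtb25 has 2 annotated starts there, and the one shown is nearer to Zbtb1. The Zbtb25 window is chr12:76369561-76369810 on the minus strand and the Zbtb1 window chr12:76370270-76370519 on the plus strand.
Zbtb25: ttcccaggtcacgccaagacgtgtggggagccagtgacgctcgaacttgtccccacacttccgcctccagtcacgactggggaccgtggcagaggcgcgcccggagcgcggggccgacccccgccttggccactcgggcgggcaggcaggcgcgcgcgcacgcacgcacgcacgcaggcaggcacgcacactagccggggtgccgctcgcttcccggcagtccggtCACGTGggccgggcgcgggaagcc
Zbtb1: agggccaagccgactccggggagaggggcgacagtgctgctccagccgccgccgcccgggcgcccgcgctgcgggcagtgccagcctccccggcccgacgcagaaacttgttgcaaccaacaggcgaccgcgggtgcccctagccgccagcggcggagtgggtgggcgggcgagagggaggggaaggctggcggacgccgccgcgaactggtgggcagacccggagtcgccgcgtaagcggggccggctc

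G and C made up 74.4% of the Zbtb25 window and 76.4% of the Zbtb1 window. Windows of this length were searched for 3 motifs, each on both strands, in the 37 family genes that RefSeq's promoter table holds. The E-box CACGTG stood before 4 of them, Zbtb11, Zbtb21, Zbtb25 and Zbtb49, in 5 of 52 windows, and in 6.02% of all 32851 windows. Windows of a gene can overlap, and these 5 hold 4 different sites, since both Zbtb25 windows include the same one. The Kaiso site TCCTGCNA stood before 3, Patz1, Zbtb18 and Zbtb37, in 5 of 52 windows, which hold 4 different sites, and in 4.03% of all. The antioxidant response element TGACNNNGC, the site of NRF2, which Cul3 and Keap1 mark for degradation, stood in 0 of 52 windows and in 10.2% of all. A match describes the letters of a window and is not a binding site.

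Zbtb20, a factor of plasma cells and a subset of regulatory T cells, had 9 probe sets, more than any other member. The brightest read 1593 and 1623 on the KO arrays, against 1922 and 2035 on the LM arrays. Both KO arrays were lower and the difference was -0.30 ± 0.15 (SE, limma adjusted p = 0.645). Of the other 8, all above background on at least 2 arrays, 3 had negative and 5 positive differences, from -0.34 to 0.62. The brightest set minus the next brightest, within each array, was 1.27 and 1.47 on the KO arrays, against 1.91 and 2.35 on the LM arrays (log2). The groups did not overlap, but with 2 arrays each the exact two-sided permutation p of 0.333 is the smallest this design allows, and 4 of the 8 such differences reached it. The mean of all 9 probe sets differed by 0.11.

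The remaining T cell and immune members were close between genotypes or dim. Zbtb18, encoding the repressor RP58, read 2471 and 2434 on KO arrays, against 2814 and 2756 on LM arrays. Both KO arrays were lower, by -0.17 ± 0.13 (SE, limma adjusted p = 0.808). Zbtb32, which restrains cytokine production in lymphocytes, read 169 and 253 on KO arrays, against 169 and 179 on LM arrays, a difference of 0.21, or -0.04 without KO replicate 2. Zbtb46, a marker of classical dendritic cells, read 658 and 430 on KO arrays, against 489 and 506 on LM arrays, a difference of 0.10, or -0.21 without KO replicate 1. Of 13 listed myeloid and dendritic cell markers with a probe set, 6 were below background on every array, among them Itgax and Xcr1. Their summed normalized signal was 882 and 1058 on KO arrays, against 873 and 1190 on LM arrays, and the part of such cells in the Zbtb46 signal was not tested.

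**Figure D3:**
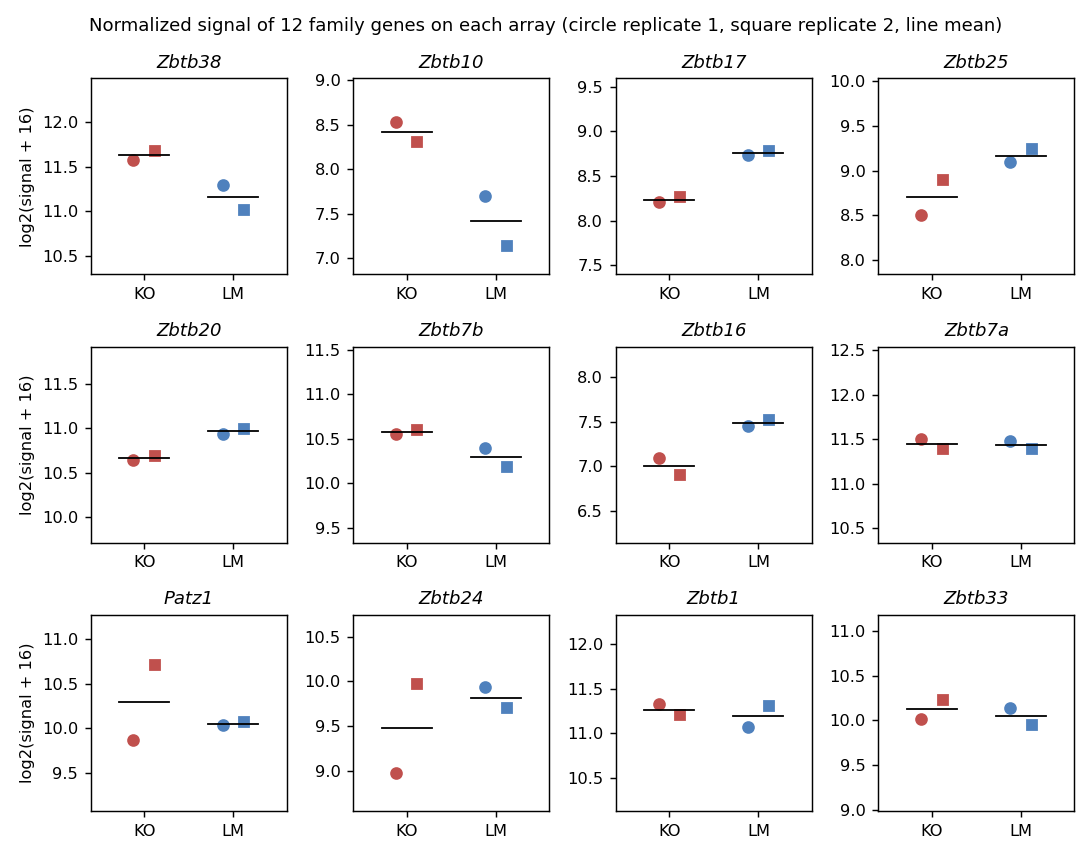
Normalized log2(signal + 16) of 12 family genes on the 2 KO arrays (left, red) and the 2 LM arrays (right, blue), with circles for replicate 1, squares for replicate 2 and lines for group means, every panel spanning the same range. Zbtb38 and Zbtb10 lie higher and Zbtb17 and Zbtb25 lower on both KO arrays, while 1 KO array stands apart for Patz1 and Zbtb24.

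The second group comprised 8 members that bind methylated DNA, chromatin or telomeres, all tested, with 6 positive and 2 negative differences and a median of 0.15. Zbtb38, a reader of methylated CpG related to Kaiso, had the smallest p of the family. It read 3041 and 3223 on the KO arrays, against 2466 and 2062 on the LM arrays. Both KO arrays were above both LM arrays, and the log2 difference was 0.47 ± 0.14 (SE, limma adjusted p = 0.307), an interval from 112% to 171% of the LM level. Without LM replicate 1 the difference was 0.61, with the lowest adjusted p of any member in any alternative (0.0722), and without LM replicate 2 it was 0.33. A second probe set pointed the same way, with 772 and 665 on KO and 616 and 589 on LM arrays (0.25). In the last one, with 353 and 379 on KO and 387 and 390 on LM arrays, the difference was -0.08.

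Zbtb10, which in human cells binds variant telomere repeats, had the largest difference of the family. It read 350 and 307 on the KO arrays, against 197 and 116 on the LM arrays. Both KO arrays were above both LM arrays. The difference was 1.001 ± 0.30 (SE, limma adjusted p = 0.321), and it was 0.72 without LM replicate 2 and 1.28 without the other LM array. A difference of at least 2-fold either way was found for 1 of 39 members, beside 2.07% of all genes. Of the other 2 probe sets, one read 244 and 116 on KO and 186 and 159 on LM arrays, a difference of -0.08. The other, above background on 2 arrays, read 86.1 and 117 on KO and 139 and 12.6 on LM arrays, a difference of 0.76. The KO and LM arrays overlapped in both.

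The readers of methylated DNA Kaiso (Zbtb33) and Zbtb4 were bright and close. Zbtb33 read 1014 and 1176 on KO arrays, against 1123 and 972 on LM arrays, a difference of 0.08 with an interval from 80.4% to 139% of the LM level. Zbtb4 read 1143 and 1354 on KO arrays, against 1239 and 1413 on LM arrays, a difference of -0.08 with an interval from 72.8% to 123%. The sign of both turned with single arrays left out, to -0.03 for Zbtb33 without KO replicate 2 and to 0.04 for Zbtb4 without KO replicate 1. Zbtb24, mutated in an immunodeficiency syndrome with unstable centromeres, read 484 and 985 on KO arrays, against 973 and 811 on LM arrays. KO replicate 1 alone was low, and the difference of -0.34 ± 0.28 (limma adjusted p = 0.832) became 0.16 without it. The second Zbtb24 probe set differed by 0.24.

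The other 3 of this group had positive differences. Zbtb2 read 2181 and 2554 on KO arrays, against 1955 and 2073 on LM arrays, a difference of 0.23 ± 0.15 (SE, limma adjusted p = 0.764). Its second probe set, at 150 and 169 on KO and 250 and 170 on LM arrays, differed by -0.39, and the mean of both by -0.08. Zbtb40 read 889 and 847 on KO arrays, against 626 and 741 on LM arrays, a difference of 0.35 ± 0.19 (limma adjusted p = 0.703). For the brightest probe sets of Zbtb2 and Zbtb40, both KO arrays were higher. Zbtb48, which binds telomere repeats, read 195 and 250 on KO and 222 and 211 on LM arrays, a difference of 0.01, or -0.02 under median centring.

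The third group held the 20 other members tested, with 9 positive and 11 negative differences, a median of -0.01 and adjusted p-values of 0.726 or above. Those with the widest gaps were dim. Zbtb12 read 152 and 90.5 on KO arrays, against 80.0 and 33.6 on LM arrays, where it was below background on both. It was thus at least 1.13-fold higher (limma adjusted p = 0.726), a direction that the filter on background strongly favoured. Zbtb3 read 141 and 34.9 on KO and 168 and 109 on LM arrays, a difference of -0.82 that became 0.04 without KO replicate 2. Zbtb8a read 121 and 116 on KO and 128 and 257 on LM arrays, a difference of -0.60, or -0.10 without LM replicate 2. For Zbtb3 and Zbtb8a alike, 1 array carried most of the difference. Hic2, the paralogue of Hic1, read 219 and 115 on KO and 113 and 123 on LM arrays, a difference of 0.33, or -0.14 without KO replicate 1.

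Both KO arrays were also above both LM arrays for Zbtb6 (0.31 ± 0.19), Zbtb42 (0.44 ± 0.35) and Zbtb34 (0.23 ± 0.20), and below them for Zbtb49 (-0.45 ± 0.30), Zbtb5 (-0.36 ± 0.26) and Zbtb11 (-0.22 ± 0.20, log2 difference ± SE). Their limma adjusted p-values ran from 0.747 to 0.858. The gap between the nearest KO and LM arrays was only 0.004 for Zbtb34, 0.02 for Zbtb11 and 0.04 for Zbtb42 (log2). For Zbtb6, Zbtb49 and Zbtb5 it lay between 0.17 and 0.32. The second Zbtb34 probe set differed by -0.13, and there the groups overlapped. Zbtb5 read 215 and 228 on KO arrays, against 289 and 282 on LM arrays, and stayed between -0.39 and -0.33 with any 1 array left out. Zbtb6 read 927 and 811 on KO arrays, against 700 and 703 on LM arrays. The groups overlapped for Zbtb14, Zbtb21, Zbtb22, Zbtb26, Zbtb37, Zbtb39, Zbtb41, Zbtb43, Zbtb44 and Zbtb45, whose differences ran from -0.13 to 0.15. Zbtb22 was nearly the same on every array, with signals of 632 and 643 on KO arrays, against 622 and 642 on LM arrays. Zbtb44 varied more, with signals of 2480 and 2919 on KO and 2898 and 2393 on LM arrays.

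Members lie on 15 chromosomes, and 4 pairs are direct neighbours among protein-coding genes. Zbtb6 differed by 0.31 and its neighbour Zbtb26 by -0.002, and Zbtb34 by 0.23 and its neighbour Zbtb43 by -0.02. Of the pair Zbtb8a and Zbtb8b only the first was above background. By the brightest probe sets, in none of the 3 pairs with both genes tested did both have groups without overlap. Only 37.4% of all genes had such groups, so 3 pairs are too few to read. In the second Zbtb1 probe set both KO arrays were lower, as for Zbtb25.

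Different probe sets of a member often differed in sign. Of the 92 probe sets, 76 were above background on at least 2 arrays and were tested one by one, and 0 passed in limma at an adjusted p below 0.05, beside 0.229% of 21795 probe sets. At an unadjusted p below 0.05 there were 4, beside 7.97% of those 21795. For 21 genes several probe sets were tested, and all had the same sign for 6 of them, 28.6%, beside 43.6% of 5708 genes. Where exactly 2 were tested, both had one sign for 4 of 12 genes, 33.3%, beside 55.9% of 3000 genes. The 6 were Zbtb7b, Zbtb25, Zbtb41, Zbtb46, Zbtb49 and Zbtb21. The widest ranges between probe sets of a gene were 1.08 for Zbtb10 and 0.96 for Zbtb20 (log2).

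**Figure D4:**
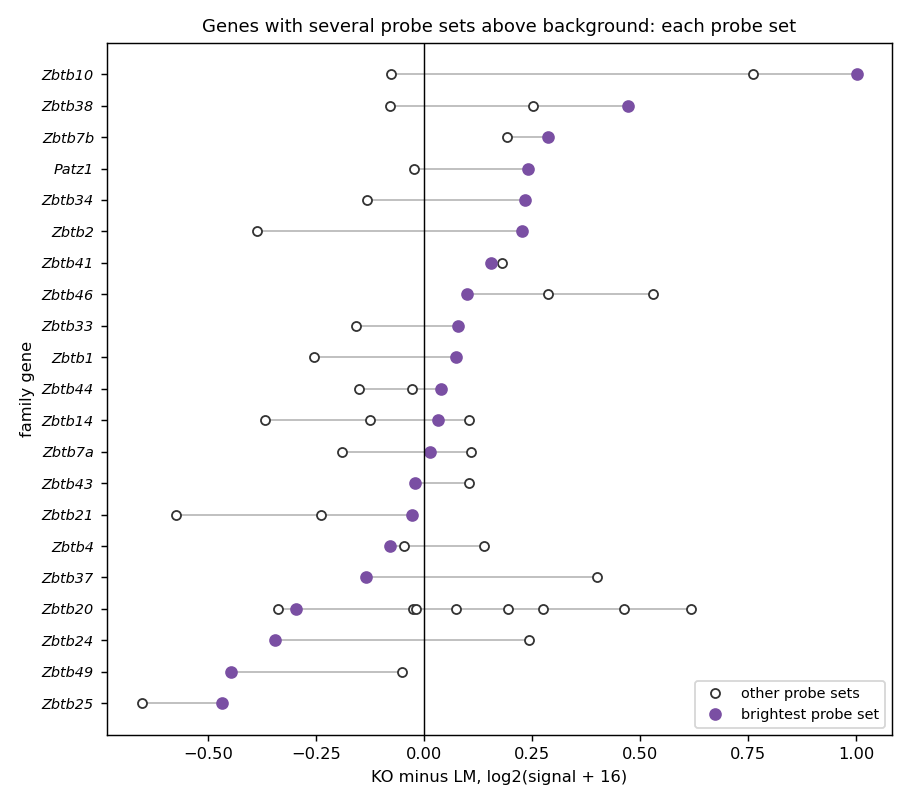
KO minus LM difference in log2(signal + 16) for each probe set of the 21 family genes with several probe sets above background, with the brightest set filled and the others open. For 15 genes the probe sets fall on both sides of 0.

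Genes that work with or under the family were described from lists. The lists were chosen with earlier results of these data known, so their shares and medians are description and not a test. Of 25 tested corepressors and partners, 0 were called higher and 0 lower in limma, the median difference was -0.01 (all genes 0.002), and 12 were positive. The lowest p-values belonged to Hdac3, the deacetylase of NCOR complexes (-0.55 ± 0.18, adjusted p = 0.394), the SIN3 scaffold Sin3b (0.30 ± 0.12, adjusted p = 0.480) and the corepressor Ctbp1 (-0.36 ± 0.16, adjusted p = 0.558). Hdac3 read 834 and 701 on the KO arrays, against 1142 and 1123 on the LM arrays. At an unadjusted p below 0.05 there were 4 of the 25, beside 8.4% of all genes.

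Of 22 tested genes around ThPOK and MAZR in CD4 and CD8 lineage choice, 0 were called in either direction in limma, and the median was -0.10. At an unadjusted p below 0.05 there were 2, beside 8.4% of all genes. Klf2, a regulator of thymic exit, differed by -0.48 (adjusted p = 0.393), Cd69, induced by receptor signalling, by 0.56 (adjusted p = 0.427), and the integrin Itgae by 0.78 (adjusted p = 0.599). Cd69 passed at 0.95 without KO replicate 1 and at 0.67 without LM replicate 2, and differed by 0.16 without KO replicate 2. Cd4 itself read 7169 and 7233 on the KO arrays, against 7742 and 8153 on the LM arrays, a difference of -0.14 ± 0.08 (limma adjusted p = 0.722).

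In the innate-like program linked to PLZF, 1 of 22 tested genes was called higher and 0 lower, beside 0.133% and 0.142% of all genes. Of the 22, S100a4, S100a6 and Gzma passed the background filter only through the KO arrays, which strongly favours a positive difference. Among the other 19, 16 had positive differences, beside 49.6% of all genes counted the same way, and the median was 0.31. At an unadjusted p below 0.05 there were 6 of the 19, beside 863 of 11000 genes counted the same way. This list and the marker lists below were chosen with earlier results of these data known. Their shares are description and not a test. Il17rb, a chain of the interleukin-25 receptor, rose to 1929 and 2719 on the KO arrays, against 1061 and 1103 on the LM arrays (1.08 ± 0.19, SE, limma adjusted p = 0.0340). Its call ended without KO replicate 2 (0.82, adjusted p = 0.157). S100a4, a calcium-binding protein of memory and innate-like T cells, read 245 and 177 on KO arrays, against 53.3 and 39.8 on LM arrays, where it did not pass background, so the KO level was at least 1.92-fold higher (adjusted p = 0.162). The nuclear receptor Rora differed by 0.69 ± 0.19 (adjusted p = 0.245). Zbtb16 had the opposite sign. Gzma and S100a6 were named after their values were seen. Among 11 markers of NKT and innate-like T cells with a probe set, 3 were below background on every array, Klrk1, Tbx21 and Nkg7. The summed normalized signal of the 11 markers was 2518 and 2731 on the KO arrays, against 1672 and 1857 on the LM arrays. These markers are not a separate set, since the innate-like program also lists some of them, such as Il2rb, Gzma and Cxcr6. Il2rb lay at an unadjusted p below 0.05 and is counted in both lists. Of the 8 tested, 0 were called in either direction in limma and 4 lay at an unadjusted p below 0.05, Xcl1 among them. Gzma and Xcl1 passed the filter only through the KO arrays. Without them, 3 of 6 lay at an unadjusted p below 0.05, beside 863 of 11000 genes. All 11 regulatory T cell markers with a probe set were tested, 10 with a positive difference, beside 50.3% of all genes. At an unadjusted p below 0.05 there were 4 of the 11, beside 8.4% of all genes. In limma 1 was called higher and 0 lower, beside 0.133% and 0.142% of all genes. Izumo1r, the folate receptor of regulatory T cells, was called higher, with 7706 and 7091 on the KO arrays, against 4859 and 5022 on the LM arrays (0.58 ± 0.09, limma adjusted p = 0.0213). Its call ended without KO replicate 1 (0.54, adjusted p = 0.0698). The summed normalized signal of these 11 markers was 21102 and 19013 on KO, against 15244 and 15715 on LM. Izumo1r is part of that sum. Both KO arrays lay above both LM arrays for 4 of the 11, beside 19.1% of all genes. They lay below both for 1, beside 18.3%. Foxp3 read 794 and 363 on KO arrays, against 499 and 288.5 on LM arrays, and the groups overlapped (0.48, limma adjusted p = 0.804). Il2ra, the gene of CD25, read 963 and 949 on KO arrays, against 611 and 540 on LM arrays (0.72 ± 0.19, limma adjusted p = 0.221). The part of either cell type in the values of the innate-like program was not tested.

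Among 12 tested methyl-CpG readers and genes of the syndrome that Zbtb24 belongs to, the median was -0.10. In limma 1 of the 12 was called lower and 0 higher, beside 0.142% and 0.133% of all genes. Uhrf1, which guides maintenance methylation, fell to 488 and 470 on the KO arrays, against 1091 and 993 on the LM arrays (-1.09 ± 0.19, limma adjusted p = 0.0398). Its call ended without KO replicate 2 (-1.05) and without LM replicate 1 (-1.03). Dnmt3a, a maker of new DNA methylation, differed by 0.30 ± 0.10 (adjusted p = 0.393) and Dnmt1, the maintenance enzyme, by -0.20 ± 0.11 (adjusted p = 0.690). Of 28 tested cell cycle genes, 7 were called lower, beside 0.142% of all genes, and 0 higher, and the median was -0.80. The other 21 did not pass, and Cdc45, named after its value was seen, had a difference of 0.68 (adjusted p = 0.442). The called genes were Mki67, Top2a, Kif11, Ube2c, Cenpe, Ccna2 and Cenpf, and the summed normalized signal of the list was 34936 and 37139 on the KO arrays, against 51877 and 51817 on the LM arrays. With the mean of all probe sets the calls of Top2a (-0.22), Cenpf (-0.76), Cenpe (-0.90) and Ccna2 (-0.92) ended, as did those of Cenpf without KO replicate 1 (adjusted p = 0.0505) and Ccna2 without KO replicate 2 (adjusted p = 0.0627). The part of proliferation in the Uhrf1 value was not tested.

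Of 11 tested genes linked to MIZ1 and the MAX network, 0 were called in either direction in limma, and the median was -0.01. At an unadjusted p below 0.05 there were 0, beside 8.4% of all genes. The lowest p-values were those of Mycn (0.60, adjusted p = 0.654), the MAX partner Mnt (-0.23, adjusted p = 0.800) and the survival gene Bcl2 (-0.09, adjusted p = 0.843).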

How the data were processed

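Per the labels' protocols, Trizol RNA of the 4 sorted samples was amplified (WT-Ovation Pico) and biotinylated. What the authors deposited is a linear intensity for every probe set on every array, between 0.1 and 43129. Each array's mean after trimming 2% at each end was 500.0, so values had been scaled; program, background correction and detection calls were not known here. After removal of 64 controls from 45101 probe sets, 34945 had 1 gene symbol, 932 several and 9160 none. All 42 family genes matched RefSeq symbols.

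Levels were log2(intensity + 16), quantile normalized. The brightest probe set stood for a gene, and genes had to exceed the receptor background on 2 or more arrays (11255 tested, 6938 not). KO minus LM was fitted with limma 3.58.1 in R 4.3.3 (eBayes with trend, genotype only), two-sided, Benjamini-Hochberg over all genes tested, threshold 0.05, with 2 residual and 9.96 borrowed degrees of freedom. The script was tested on simulated data. Tables used Python 3.11.15 and pandas 2.3.3, figures matplotlib 3.10.9. All family genes were named, and of each list of pathway genes the 3 tested with the smallest p and any called. The rule did not cover cell type markers. Izumo1r, Foxp3, Il2ra, Xcl1, Il2rb, Cxcr6, Cd3e, Cd4 and the markers below background were named after their values were seen. Where a gene was below background on both arrays of a group, the fold is a bound with that group raised to background. Arrays left out were dropped after normalization. Members and lists were chosen with earlier results of these data known. Array number and signal over background limit precision; the median SE was 0.22.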

Additional observations from a re-analysis of the deposited data

How the results depend on the processing

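In all 15 alternatives limma called 0 family genes higher and 0 lower, with 0 to 4 at an unadjusted p below 0.05 and a lowest adjusted p of 0.0722. The family median stayed between -0.038 (median centring, where all genes moved to -0.046) and 0.094 (without KO replicate 1). Counts over all genes, 15 higher and 16 lower, were less steady: 25 higher without normalization, 38 higher and 43 lower with median centring, and 26 higher with each probe set tested separately. Limma called 0 higher and 0 lower without the filter on dim genes (1247 genes at an unadjusted p below 0.05) and without the eBayes trend (922). Leaving out single arrays gave 16 to 56 higher and 24 to 41 lower. The replicate number as a block gave 21 higher and 22 lower, and 0 family genes. Deviations of same-numbered KO and LM arrays had a correlation of -0.017 over the tested genes. With so few arrays per group, this value cannot tell whether same-numbered arrays were handled together. The labels give only the replicate number. Of 39 members, 12 kept their sign in every alternative that tested them, all tested probe sets included: Zbtb5, Zbtb6, Zbtb7b, Zbtb8a, Zbtb11, Zbtb12, Zbtb16, Zbtb18, Zbtb25, Zbtb40, Zbtb42 and Zbtb49. The filter strongly favoured that of Zbtb12. All of them had groups without overlap, so leaving out 1 array could not turn their sign. The eBayes variants, the filter settings and the replicate block leave the difference itself unchanged. Of these members, only Zbtb7b, Zbtb25 and Zbtb49 had more than 1 tested probe set. The share of all genes that kept their sign was not counted.

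The calls of Il17rb, Uhrf1, Izumo1r and the 7 cell cycle genes ended without the filter and without the eBayes trend, that of Izumo1r also with median centring (0.53), and that of Uhrf1 with the mean of all probe sets (-0.793). Signs of uncalled genes turned as follows. Median centring gave -0.019 for Zbtb44, -0.021 for Zbtb14, -0.051 for Zbtb7a, -0.038 for Zbtb22 and -0.023 for Zbtb48, no normalization -0.001 for Zbtb7a, and a pseudocount of 64 0.001 for Zbtb26. The mean of all probe sets gave 0.24 for Zbtb17, 0.105 for Zbtb20, -0.081 for Zbtb2, -0.036 for Hic2, 0.133 for Zbtb37, -0.091 for Zbtb1, 0.251 for Zbtb4, -0.039 for Zbtb33, -0.047 for Zbtb44, -0.089 for Zbtb14, 0.041 for Zbtb43, -0.023 for Zbtb7a, 0.257 for Bcl2, 0.041 for Cul3 and 0.057 for Mnt. With 1 array left out, the lowest and highest values were -0.845 to 0.155 for Zbtb24, -0.139 to 0.801 for Hic2, -0.202 to 0.041 for Zbtb4, -0.209 to 0.406 for Zbtb46, -0.24 to 0.166 for Zbtb45, -0.07 to 0.025 for Zbtb43, -0.308 to 0.251 for Zbtb21, -0.045 to 0.071 for Zbtb7a, -0.33 to 0.327 for Zbtb26, -0.053 to 0.032 for Cul3, -1.683 to 0.036 for Zbtb3, -0.179 to 0.659 for Patz1, -0.042 to 0.454 for Zbtb32, -0.291 to 0.023 for Zbtb37, -0.03 to 0.188 for Zbtb33, -0.489 to 0.224 for Zbtb39, -0.116 to 0.193 for Zbtb44, -0.029 to 0.094 for Zbtb14, -0.129 to 0.151 for Zbtb48, -0.043 to 0.191 for Zbtb1, -0.024 to 0.059 for Zbtb22 and -0.107 to 0.414 for Zbtb41. The cause of these turns was not tested.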
